A study of Mus musculus with 24 samples.

Results

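7 complement genes and pentraxin 3 make up the set described here, namely C1ra, C1s1, C4b, C3, Cfb, C7, Serping1 and Ptx3. The 8 genes were taken by name from the 53801 genes listed in the deposited FPKM values (fragments scaled by transcript length and by the fragments counted in a library). Earlier results of these data were known when they were chosen. They were followed in pancreatic stellate cells (PSC), which reside in the pancreas and turn into matrix-producing fibroblasts on activation. PSC came from pooled pancreata of young wild-type C57BL/6J mice, and KPC cells are a single line of pancreatic cancer cells from one female mouse in which p48-Cre switched on tumour-driving alleles. PSC grew on a membrane with 1 µm pores in every group. In standard co-culture (distant) the KPC cells lined the floor of the dish, in inverse co-culture (close) they grew on the underside of the same membrane, and control PSC of each model were kept without KPC cells. The 8 groups (model, treatment and time point of 24 h or 72 h) held 3 RNA libraries each, 24 in all, which the paper calls biological replicates. Whether these came from separate isolations of PSC is not stated, so p-values measure the spread between libraries only. The labels give 450 ng of RNA per library for standard and 120 ng for inverse libraries. In the inverse model KPC cells were already attached when PSC were seeded, 24 h before time counting began. In the standard model the cells were joined when time counting began. Standard PSC and their controls changed medium at that point, whereas inverse PSC and their controls were seeded in the final medium. Effects of RNA input, time with KPC cells, medium and model cannot be told apart.

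Complement is a cascade of plasma proteins that marks microbes and dying cells for removal, and although the liver makes most of it, fibroblasts make several components locally. In the classical pathway the serine proteases C1r and C1s, bound to the recognition molecule C1q, cleave C4 and C2, and in the alternative pathway factor B serves as the protease. Both pathways converge on the cleavage of C3, after which C5 to C9 can build the membrane attack complex, while C1 inhibitor (Serping1) restrains the start of the cascade. Pentraxin 3 is a secreted pattern recognition protein that binds C1q and stabilises hyaluronan-rich matrix together with the product of Tnfaip6, and C3 and Ptx3 are both known as inflammation-induced genes of fibroblasts.

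The genes lie on 5 mouse chromosomes (GRCm38, GENCODE M21 annotation). C1ra (ENSMUSG00000055172), encoding C1r, and C1s1 (ENSMUSG00000038521), encoding C1s, are neighbours on chromosome 6, from 124512405 to 124523443 on the plus strand and from 124530345 to 124542359 on the minus strand. C4b (ENSMUSG00000073418), Cfb (ENSMUSG00000090231) and C3 (ENSMUSG00000024164) are on the minus strand of chromosome 17, from 34728380 to 34743882, from 34856374 to 34862518 and from 57203970 to 57228136. C7 (ENSMUSG00000079105), a part of the membrane attack complex, is on chromosome 15 from 4988762 to 5063740, Serping1 (ENSMUSG00000023224) on chromosome 2 from 84765387 to 84775444, both on the minus strand, and Ptx3 (ENSMUSG00000027832) on the plus strand of chromosome 3 from 66219910 to 66225805.

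RefSeq promoter sequences of GRCm38.p6 were at hand for C1ra, C1s1, C3, C7 and Ptx3, which were searched over the 250 bases before the start, on both strands, for a TATA box spelled TATAAA, for the C/EBP motif TTGCNNAA, for the STAT motif TTCNNNGAA, for the AP-1 motif TGANTCA, and for an IRF and an NF-kB site. The promoters of C3 and Ptx3 are shown because these are the members called in a co-culture comparison. The first is chr17:57228137-57228386 on the minus strand and the second chr3:66219637-66219886 on the plus strand, 5′ to 3′, with capitals for the C/EBP match, which in Ptx3 lies on the other strand.
C3: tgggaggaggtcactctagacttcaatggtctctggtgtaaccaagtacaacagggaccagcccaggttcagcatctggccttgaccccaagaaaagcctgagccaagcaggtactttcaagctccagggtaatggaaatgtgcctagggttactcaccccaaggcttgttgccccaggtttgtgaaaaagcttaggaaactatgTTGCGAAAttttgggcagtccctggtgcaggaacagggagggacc
Ptx3: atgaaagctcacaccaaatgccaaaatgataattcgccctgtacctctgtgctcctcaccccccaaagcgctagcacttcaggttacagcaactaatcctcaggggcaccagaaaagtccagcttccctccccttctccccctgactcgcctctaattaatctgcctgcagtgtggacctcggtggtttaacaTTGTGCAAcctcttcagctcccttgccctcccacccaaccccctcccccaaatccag
The match lies at positions -45 to -38 from the start in C3 and at -57 to -50 in Ptx3, and no other motif matched in either window. A C/EBP match was also found at -242 to -235 before one of 2 listed starts of C1s1, and C1ra had no match. C7 had a STAT match at -164 to -156 and, on the other strand, the letters TATAAA at -6 to -1, directly at the start. Of 32817 promoters listed, 9.57% held a C/EBP match in the same window, 7.25% an NF-kB match and 7.01% a STAT match. An AP-1 match was held by 6.75%, an IRF match by 2.97% and a TATAAA match by 12.4%. A match is a stretch of letters and no evidence of binding.

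Between 15932697 and 24798741 fragments were counted per library (median 18860245), as recovered from the steps of low FPKM values. The defining PSC markers Vim, Des, Acta2, Col1a1, Col1a2, Pdgfra and Pdgfrb were expressed, whereas Gfap was below 1 FPKM in every library. Of the 10 epithelial or cancer cell markers, 6 were below 1 FPKM in every library, but the keratins Krt8, Krt18 and Krt19 reached 15.2, 11.7 and 11.6 FPKM in replicate 2 of inverse co-culture at 24 h. In the standard model, the libraries numbered 1 had the highest level of Acta2, the gene of αSMA, in all 4 groups. In control PSC it was at 5963 FPKM at 24 h against 824 and 1509 in replicates 2 and 3, and at 4537 against 476 and 895 at 72 h. In co-cultured PSC it was at 3129 against 581 and 1122 at 24 h. At 72 h the gap was the smallest, with 1194 against 771 and 899. Because RNA of a whole culture was sequenced, fewer cells of a type and less RNA per cell cannot be told apart.

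Serping1, Ptx3 and C3 were the members with the highest levels. For comparison between genes, levels are given here per kilobase of the longest annotated transcript, because the steps of the deposited FPKM follow the mean transcript length of a gene, which for C3 is 1666 bases against 5136 in its longest transcript. On this scale the median over 24 libraries was highest for Serping1 (752), followed by Ptx3 (466), C3 (399.7), C1s1 (180.0), C1ra (74.5), C4b (65.6), Cfb (0.856) and C7 (0.227). All other FPKM values below are as deposited. Their differences between libraries do not depend on the length used.

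The libraries spread over a wide range for the complement genes and a narrow one for Ptx3. C3 ranged from 167 to 5124 FPKM over the 24 libraries (31-fold), C4b from 13.8 to 411 (30-fold), Serping1 from 176 to 1876 (11-fold), C1ra from 17.9 to 146 and C1s1 from 88.6 to 625. Ptx3 ranged from 349.8 to 1063 FPKM (3.0-fold). Within a group of 3, the highest C3 value was 5.04 to 30.7 times the lowest in the standard model and 1.12 to 1.90 times in the inverse model. For Ptx3 the same ratio was 1.05 to 1.83 in the standard and 1.19 to 1.30 in the inverse model. The standard libraries thus differed more for C3, and those numbered 1 held the lowest C3, C4b, C1s1, C1ra and Serping1 in each of the 4 standard groups.

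**Figure D1:**
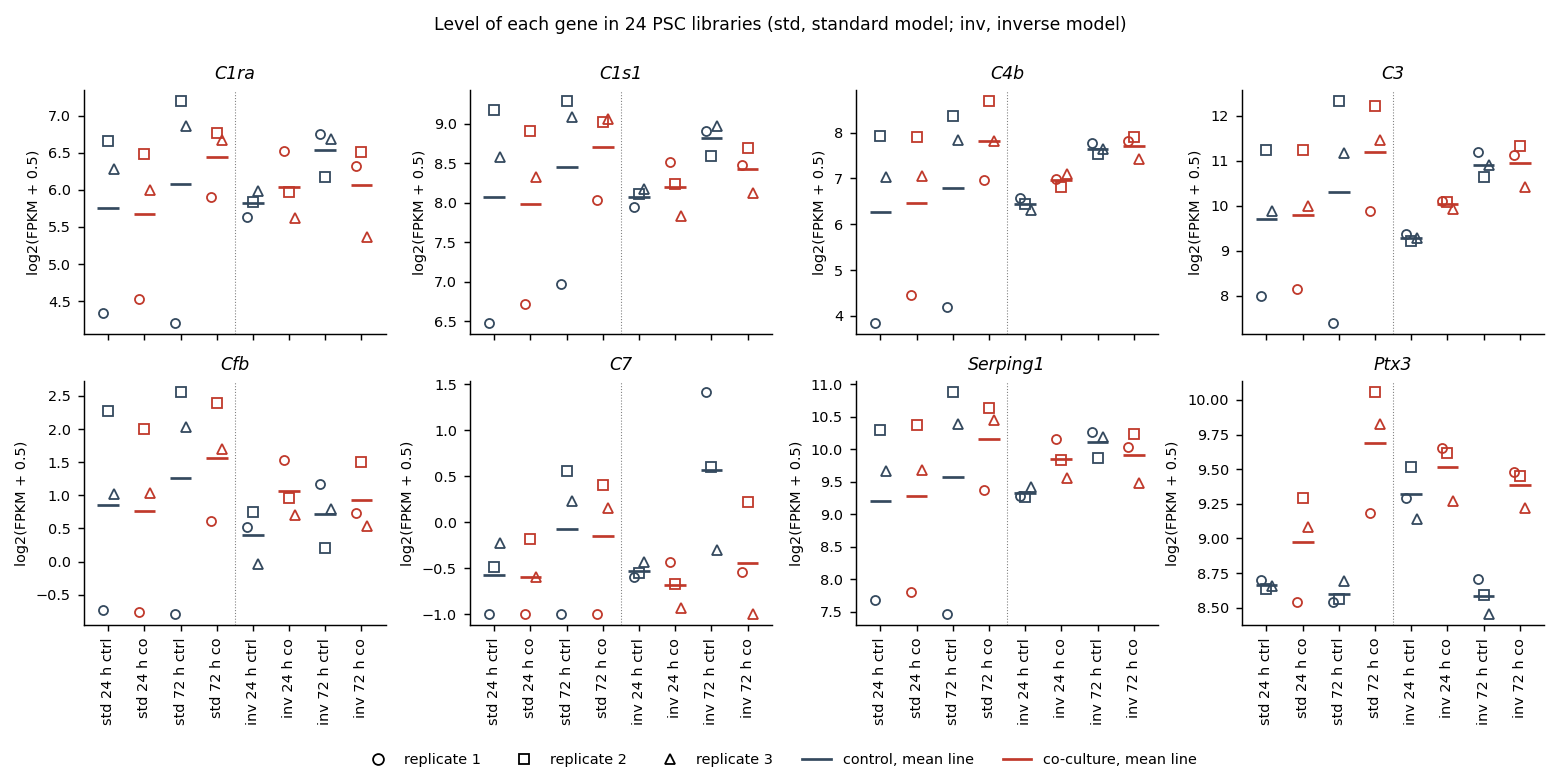
Levels of the 8 genes in 24 PSC libraries, one panel per gene. The y axis is log2(FPKM + 0.5), the x axis the 8 groups (std, standard; inv, inverse; ctrl, control; co, co-culture), symbols are replicate numbers and horizontal lines group means on this scale. Standard libraries numbered 1 (circles) lie lowest for the complement genes, with C3 down to 167 FPKM, while Ptx3 stays between 349.8 and 1063 FPKM.

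Cfb and C7 were close to the limit of what these libraries measure. Cfb was above 1 FPKM in 17 of 24 libraries, between 0.0766 and 5.38, resting on 3 to 173 fragments. Its level may be understated, since 79.5% of its exonic bases also belong to the overlapping gene Gm20547 on the same strand, listed at 0 in every library, and the default counting drops fragments that hit more than 1 gene. C7 was above 1 FPKM in 2 libraries, both inverse controls at 72 h (2.17 and 1.02), and at 0 in 5, 4 of them the standard libraries numbered 1, so it did not pass the filter of an FPKM above 1 in at least 3 libraries and was not tested in any comparison. The other 7 members passed it in every comparison.

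Near-identical copies add some uncertainty to C4b, C1ra and C1s1. Of the 150-base windows of the longest transcript, 8.26% in C4b occur in C4a, 26.3% in C1ra occur in C1rb and 2.86% in C1s1 occur in C1s2, and 18.4% of the exonic bases of C1s1 overlap the antisense gene Gm16567, which was listed at 0. The copies themselves were low, with at most 1.31 FPKM for C4a, 0.718 for C1rb and 1.72 for C1s2.

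The complement genes varied together over the libraries and Ptx3 varied less closely with them. Over 24 libraries, Pearson's r of log2(FPKM + 0.5) between pairs of C1ra, C1s1, C4b, C3, Cfb and Serping1 was 0.86 to 0.97, in 15 pairs. Without the 4 standard libraries numbered 1 it was 0.73 to 0.98 (20 libraries), and within the 12 inverse libraries 0.40 to 0.98. Between Ptx3 and the same 6 genes it was 0.19 to 0.32 over 24 libraries, 0.39 to 0.50 within the standard model and -0.54 to 0.35 within the inverse model. Of the 14452 genes above 1 FPKM in at least 3 libraries, those most like C3 were C4b (r = 0.96), Serping1 (0.95) and Itm2a (0.95), and those most like Ptx3 were Nsg1 (0.80), Sdc4 (0.77) and Tubb3 (0.73). These coefficients describe the same 24 libraries, which share groups and depth, and carry no p.

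The mono-cultured PSC show the level against which each co-culture is read, and in the inverse model it differed between time points. From 24 h to 72 h, 5 of the 7 members tested rose in control PSC, namely C1ra, C1s1, C4b, C3 and Serping1, and Ptx3 fell. Of all 13092 genes tested, 19.2% were called at an adjusted p under 0.05, 10.2% higher and 9.05% lower, beside 6 of 7 members. The median log2 fold change was 0.77 over the 6 complement genes tested and 0.04 over all genes.

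C3, where the pathways converge, had 661, 593 and 620.4 FPKM in inverse controls at 24 h and 2344, 1604 and 1909 at 72 h. The ranges do not overlap, and the log2 fold change was 1.63 (standard error 0.14, adjusted p = 0.00127 from limma, 3.09-fold). C4b, the substrate of C1s, went from 95.1, 86.5 and 78.8 to 217, 185 and 199 FPKM (log2 fold change 1.20 with a standard error of 0.10, adjusted p = 0.00122 from limma). All 72 h libraries were above all 24 h libraries for both genes.

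The proteases and the inhibitor of C1 rose less. C1s1 had 247, 277 and 289 FPKM at 24 h and 480.2, 387 and 501 at 72 h (log2 fold change 0.75, adjusted p = 0.00456 from limma). C1ra had 49.2, 56.8 and 62.5 FPKM at 24 h and 107, 71.8 and 102 at 72 h (0.72, adjusted p = 0.0165). Again no library of one time point reached the range of the other, but when each library was left out in turn C1ra was called in 2 of 6 fits, with an adjusted p of up to 0.0582. Serping1 had 619, 613 and 685 FPKM at 24 h and 1233, 932 and 1170 at 72 h (0.79, adjusted p = 0.00434 from limma).

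Ptx3 moved the other way, from 627, 731 and 565 FPKM at 24 h to 418, 385 and 349.8 at 72 h. Its log2 fold change was -0.73 (standard error 0.12, adjusted p = 0.00485 from limma), and the 72 h libraries were all below the 24 h libraries. Cfb had 0.471 to 1.17 FPKM at 24 h and 0.648 to 1.75 at 72 h and was not called (log2 fold change 0.32, adjusted p = 0.57).

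The other genes of the pathway are given from lists of 53 complement genes without the members, of which 22 were tested here. In the inverse controls 10 of these were higher at 72 h and 1 was lower, with a median log2 fold change of 0.80. The subunits of C1q, C1qa, C1qb and C1qc, rose by 1.69, 1.53 and 1.51 on the log2 scale, and among the others C2, factor D (Cfd), Cd55, clusterin (Clu), vitronectin (Vtn) and the integrin Itgb2 rose, while Cd59a, an inhibitor of the membrane attack complex, was the 1 gene that fell (-0.66, adjusted p = 0.0112 from limma). Of 22 acute-phase and inducer genes, 16 were tested and 5 rose, among them Saa3 (2.20) and Lcn2 (2.26).

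Markers of other cells moved over the same interval. Of 12 macrophage markers 9 were tested and 6 rose, with a summed level of 74.3 to 90.4 FPKM at 24 h and 137 to 263 at 72 h, and of 7 adipocyte markers 6 rose, from a sum of 224 to 323 FPKM to one of 498 to 1019.8. Of the PSC or fibroblast markers Acta2, Des and Vim fell and Pdgfra rose. Their part in the rise of complement genes was not tested.

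In the standard controls, 72 h against 24 h, limma called 0 of 7 members, and 0 had an unadjusted p under 0.05, or 2 under a replicate block, namely C4b and C1s1. Of 12963 genes tested, 0% were called. C3 had 253, 2426 and 944 FPKM at 24 h and 167, 5124 and 2307 at 72 h, so replicates 2 and 3 were higher at 72 h and replicate 1 was lower. The log2 fold changes of the 6 complement genes lay between 0.33 and 0.59 with standard errors between 0.89 and 1.44. C4b was higher at 72 h in all 3 pairs, with 13.8, 242 and 131 FPKM at 24 h and 17.7, 327 and 229.5 at 72 h (log2 fold change 0.53, under the block a standard error of 0.12 and an adjusted p of 0.37 from limma). C1s1 was also higher in all 3 pairs, with 88.6, 579.8 and 382 FPKM at 24 h and 125, 625 and 546 at 72 h (0.37, under the block a standard error of 0.12 and an adjusted p of 0.46 from limma). The groups of both genes overlapped. Ptx3 had 416, 397 and 403 FPKM at 24 h and 372, 377 and 414 at 72 h. Whether this differs from the fall in the inverse controls was not tested.

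With KPC cells on the same membrane, C3 rose at 24 h. Of the 7 members tested, 1 was called in inverse co-culture at 24 h, where 2.47% of 12827 genes were called and 1.08% were called higher. With libraries rescaled to a median gene ratio of 1 the split of all calls, 139 higher and 178 lower, became 179 and 145. All 7 log2 fold changes were above 0, with a median of 0.53 over the 6 complement genes and of -0.06 over all genes.

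C3 had 1103, 1082 and 971 FPKM in co-cultured PSC and 661, 593 and 620.4 in control PSC. The log2 fold change was 0.75 (standard error 0.10, adjusted p = 0.00809 from limma, 1.68-fold), and no library of one group reached the other. With replicate 2 of the controls left out, the adjusted p was 0.0539, and it was 0.0754 without a filter on low values. In a model over all 24 libraries, in which the spread of the standard libraries enters, it was 0.927. Epithelial or cancer cell markers were higher in all 3 co-cultured libraries, with sums of 1.92, 43.5 and 6.90 FPKM against 0.370 to 0.861 in control PSC, so no left-out library removes them. With the highest of these, replicate 2, left out, C3 was called with an adjusted p of 0.0497 from limma. The part of these cells in the difference was not tested.

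The genes next to C3 in the cascade shifted less clearly. C4b had 126, 112 and 137 FPKM in co-culture against 95.1, 86.5 and 78.8 in control PSC (log2 fold change 0.52, adjusted p = 0.0533 from limma), and voom on the recovered fragments called it (adjusted p = 0.0210). Serping1 had 1135, 908 and 756 FPKM against 619, 613 and 685 (0.53, adjusted p = 0.115), and scaling by the median of gene ratios called it (adjusted p = 0.0452). Neither gene had overlapping groups. C1s1 and C1ra had overlapping groups with log2 fold changes of 0.12 and 0.22, Cfb had one of 0.66 (adjusted p = 0.43), and Ptx3 had 803, 786 and 617 FPKM against 627, 731 and 565 (0.20, adjusted p = 0.58).

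At this time the acute-phase and inducer list held 2 called genes of 16 tested, Lcn2 (1.35) and Il6 (1.19), the latter a cytokine known to induce acute-phase genes. Among PSC markers Acta2 fell (-1.01) and Pdgfra rose (0.53). None of the 8 macrophage markers and 7 adipocyte markers tested was called. Of the 6 mesothelial markers, which summed to 32.8 to 42.1 FPKM in co-culture and to 20.49 to 24.9 in control PSC without overlap, Wt1 and Krt19 were tested, with log2 fold changes of 0.49 (adjusted p = 0.0938 from limma) and 2.45 (adjusted p = 0.0694). Krt19 is also the 1 epithelial or cancer cell marker tested. The part of these cells in the rise of C3 was not tested.

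At 72 h in inverse co-culture it was Ptx3 that rose and no complement member was called. Of 7 members tested, 1 was called, where 12.8% of 13066 genes were called and 3.27% were called higher. The median log2 fold change was -0.08 over the 6 complement genes and -0.16 over all genes. With libraries rescaled to a median gene ratio of 1 the latter was -0.008, the split of all calls went from 427 higher and 1251 lower to 746 and 686, and the log2 fold change was 0.96 for Ptx3 and 0.20 for C3, with Ptx3 still the 1 member called.

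Ptx3 had 715, 698 and 597 FPKM in co-cultured PSC and 418, 385 and 349.8 in control PSC. The log2 fold change was 0.80 (standard error 0.12, adjusted p = 0.00884 from limma, 1.74-fold), and all co-cultured libraries were above all controls. It was called in all 6 fits that each left out a library and in all 12 other alternatives. The co-cultured level was within the range of the 24 h controls, which had 565 to 731 FPKM. Of the epithelial or cancer cell markers Krt19 was tested and rose (2.03, adjusted p = 0.0189 from limma), and the 10 markers summed to 1.504 to 8.17 FPKM in co-culture and to 0 to 0.567 in control PSC, without overlap. The part of such cells in the rise of Ptx3 was not tested.

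C3 had 2222, 2585 and 1361 FPKM against 2344, 1604 and 1909 in control PSC (log2 fold change 0.04 with a standard error of 0.26, adjusted p = 0.93 from limma). Its groups overlapped, as did those of C4b (0.07, adjusted p = 0.77), Cfb (0.20) and Serping1 (-0.19, adjusted p = 0.57). C1s1 and C1ra had log2 fold changes of -0.39 (adjusted p = 0.16) and -0.47 (adjusted p = 0.31), with overlapping groups.

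Other complement genes fell in the same libraries. Of 22 tested, 5 were called lower and 0 higher, with a median log2 fold change of -0.73. Of all 13066 genes tested, 1251 were called lower and 427 higher, with a median of -0.16. The 5 were C1qa (-1.66), C1qb (-1.54), factor D (Cfd, -2.74), Cd55 (-1.60) and vitronectin (Vtn, -2.22). Cd55 is a membrane inhibitor of the C3 convertases and vitronectin an inhibitor of the membrane attack complex. C1qa was lost under a replicate block (adjusted p = 0.0577 from limma). C1qa, C1qb and C1qc are products of macrophages above all and Cfd, which the adipocyte list also holds, is one of adipocytes, and the marker lists of these cells fell too: 6 of 9 macrophage markers tested were lower and 1 was higher, with a summed level of 67.1 to 94.1 FPKM in co-culture and 137 to 263 in control PSC, and all 7 adipocyte markers were lower, at 42.5 to 141 FPKM in sum against 498 to 1019.8. The part of these cells in the changes was not tested.

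Tnfaip6, whose product works with pentraxin 3 in hyaluronan matrix, was the gene called in the list of pentraxins and their matrix partners, of which 5 of 12 were tested. It had 8.15, 6.18 and 9.11 FPKM in inverse co-culture at 72 h and 2.50, 2.59 and 2.16 in control PSC (log2 fold change 1.497 with a standard error of 0.20, adjusted p = 0.00667 from limma). No library of one group reached the other. The list did not rise as a whole, since the median log2 fold change of its 5 tested genes was -0.71, against -0.16 over all genes. Among the acute-phase and inducer genes Il6 (1.70) and Lif (1.31) rose.

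**Figure D2:**
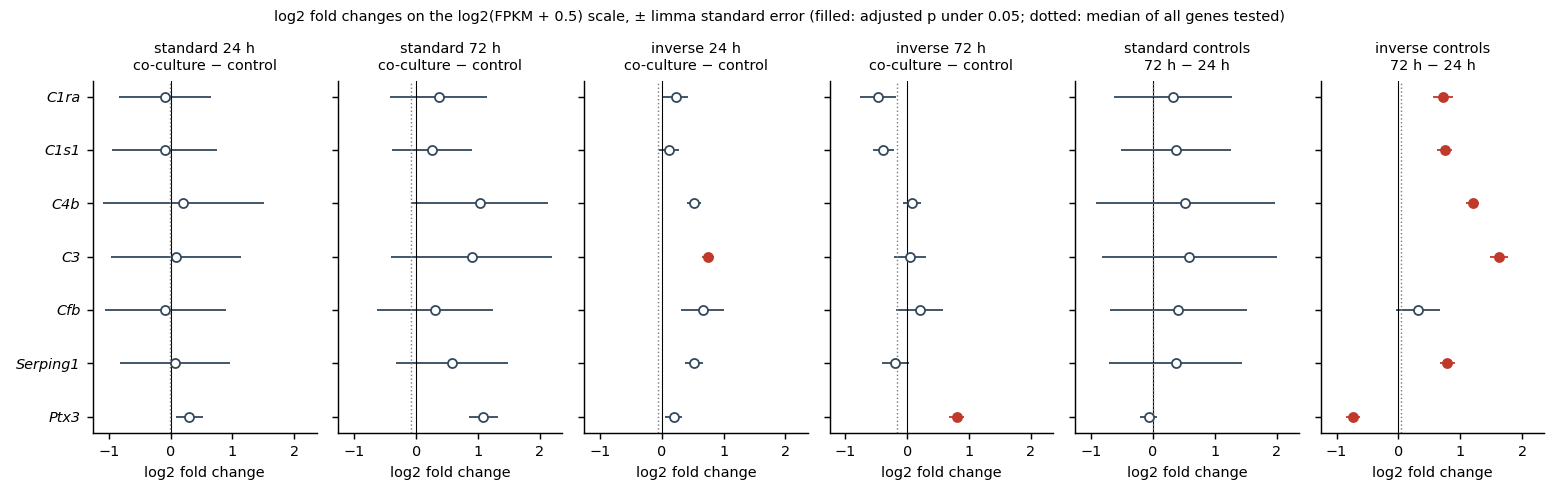
log2 fold changes (x axis, log2(FPKM + 0.5) scale) of the 7 members tested, with limma standard errors as bars, in the 4 co-culture comparisons and in the controls over time. Filled red points passed an adjusted p under 0.05, and the dotted line is the median of all genes tested. C3 at 24 h (0.75) and Ptx3 at 72 h (0.80) are filled in the inverse co-culture panels, and in the inverse controls 5 complement genes lie to the right and Ptx3 (-0.73) to the left.

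The early and the late effect of inverse co-culture were set against each other in a fit of its 12 libraries, and 0 of 7 members passed an adjusted p under 0.05 in limma, as did 0% of 13722 genes. Without adjustment 4 members had a p under 0.05. The difference (72 h minus 24 h) was -0.71 for C3 (standard error 0.29, adjusted p = 0.42 from limma), -0.45 for C4b (adjusted p = 0.42) and -0.72 for Serping1 (adjusted p = 0.40). It was 0.61 for Ptx3 (standard error 0.19, adjusted p = 0.32 from limma). These effects share no library between the time points, and each is read against a control that itself moved between them.

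Neither time point of standard co-culture had a called member in the limma fits of its own libraries. At 24 h, 0 of 7 members had an adjusted or an unadjusted p under 0.05 in limma, and 0% of 12859 genes were called. At 72 h, 0 of 7 members were called, 1 had an unadjusted p under 0.05, and 0% of 12863 genes were called. voom on the recovered fragments also called 0 members at each time. The paper, which tested counts with DESeq2 rather than FPKM, reports differentially expressed genes at both times. It lists Ptx3 as differentially expressed at 72 h in both co-cultures.

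Libraries with the same number deviated together from their group means in the standard model, which shows in the members as ratios within pairs. For C3 these were 1.12, 0.995 and 1.08 in replicates 1, 2 and 3 at 24 h (283.7, 2413 and 1024 FPKM in co-culture over 253, 2426 and 944 in control PSC). At 72 h they were 5.67, 0.931 and 1.22 (946, 4771 and 2816 FPKM over 167, 5124 and 2307). The ratio of replicate 1 at 72 h was thus far above the others.

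The 4 other complement genes above 1 FPKM in all libraries had the same pattern at 72 h. In replicate 1 the ratio was 3.32 for C1ra, 2.10 for C1s1, 7.07 for C4b and 3.77 for Serping1. In replicates 2 and 3 it lay between 0.743 and 1.26 for these 4 genes. The log2 fold changes over all libraries were between 0.25 and 1.03 for the 6 complement genes, and with both libraries numbered 1 left out they were 0.09 for C3, 0.15 for C4b, -0.24 for Cfb, -0.15 for C1s1, -0.31 for C1ra and -0.09 for Serping1. In control replicate 1 at 72 h Acta2 was at 4537 FPKM and Pdgfra at 94.9, and in the co-cultured library of this number at 1194 and 340.0. The part of these differences in the ratio was not tested.

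Ptx3 was the member for which all 3 pairs agreed in direction at 72 h. It had 582, 1063 and 906 FPKM in standard co-culture and 372, 377 and 414 in control PSC, with ratios of 1.56, 2.82 and 2.19. The log2 fold change was 1.09 (standard error 0.24, adjusted p = 0.72 from limma), under a replicate block the adjusted p was 0.24, and over all alternatives it ranged from 0.0207 to 1. All co-cultured libraries were above all controls, and in a model over all 24 libraries the gene was called (adjusted p = 0.0207). At 24 h it had 371, 626 and 542 FPKM against 416, 397 and 403 (0.31, adjusted p = 1.0), and the groups overlapped.

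**Figure D3:**
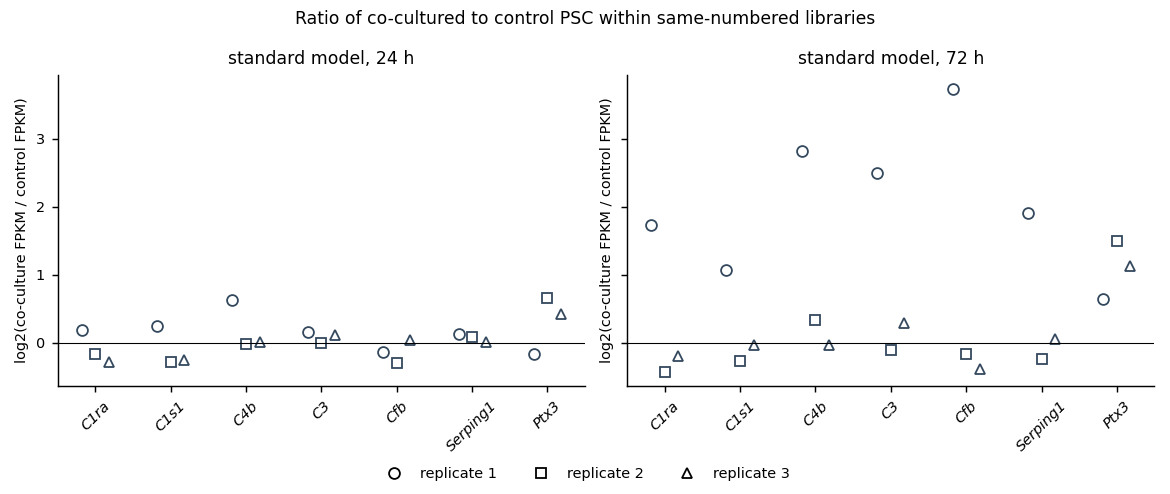
Ratio of co-cultured to control PSC within same-numbered libraries of the standard model on a log2 scale (y axis) for the 7 members tested (x axis), at 24 h and 72 h, with symbols for replicate numbers. At 72 h the ratios of the complement genes are high in replicate 1, as for C3 with 5.67, and near 1 in replicates 2 and 3, whereas Ptx3 is at 1.56, 2.82 and 2.19.

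Of the complement genes outside the set, 23 entered the 24 h fit of standard co-culture and 25 the 72 h fit, with 0 called by limma and 0 at an unadjusted p under 0.05 at either time. Tnfaip6 had 5.69, 8.08 and 5.03 FPKM in co-culture and 2.88, 2.86 and 2.08 in control PSC at 24 h (log2 fold change 1.11, adjusted p = 1.0 from limma). Under a replicate block it was called (adjusted p = 0.0435). At 72 h it had 5.80, 9.62 and 7.51 FPKM against 1.36, 4.69 and 4.73 (1.11, adjusted p = 0.78, with the block 0.33).

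The 2 models were compared by the difference of their effects over all 24 libraries (inverse minus standard). At 24 h, 0 of 7 members had an adjusted or an unadjusted p under 0.05 in limma, and 0% of 14452 genes were called. At 72 h again 0 of 7 members passed either limit, with 0% of 14452 genes called. The difference was 0.66 for C3 at 24 h (standard error 1.38) and -0.29 for Ptx3 at 72 h (standard error 0.28). With the replicate number as a block these standard errors were 0.49 and 0.21, and again 0 of 7 members were called at either time. The block called 16 of 14452 genes at 72 h, all with a negative difference, and 0 at 24 h. Between the time points in the standard model 0 of 7 members were called, 1 had an unadjusted p under 0.05, namely Ptx3 with a difference of 0.78 (adjusted p = 1.0 from limma), and 0% of 13694 genes were called.

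Ordered by their means, the 8 groups ran for C3 from 625 ± 34.4 FPKM in inverse controls at 24 h through 1052 ± 71.2 in inverse co-culture at 24 h to 2844 ± 1913 in standard co-culture at 72 h (SD, n = 3 each). Only the first of these steps separated neighbouring groups without overlap, between the inverse controls and inverse co-culture at 24 h. For Ptx3 the order ran from 384 ± 34.0 FPKM in inverse controls at 72 h, 388 ± 22.7 in standard controls at 72 h and 405.5 ± 9.80 in standard controls at 24 h to 850.1 ± 245 in standard co-culture at 72 h, and every group overlapped with the next. The 3 lowest groups were all controls.

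Within each standard group, replicate 2 was highest and replicate 1 lowest in both C3 and macrophage markers. In replicate 2 of the standard model the 12 macrophage markers summed to 426 to 1322 FPKM over the 4 groups, and C3 was at 2413 to 5124. In replicate 1 the sums were 41.1 to 91.6 FPKM and C3 was at 167 to 946. In the inverse model C3 was at 593 to 661 FPKM in controls and 971 to 1103 in co-culture at 24 h, with macrophage sums of 74.3 to 90.4 and 28.5 to 90.5. At 72 h C3 was at 1604 to 2344 FPKM in inverse controls and 1361 to 2585 in inverse co-culture. The macrophage sums were then 137 to 263 and 67.1 to 94.1, so C3 overlapped between these groups and the sums did not. The part of macrophages in the levels of C3 was not tested.

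**Figure D4:**
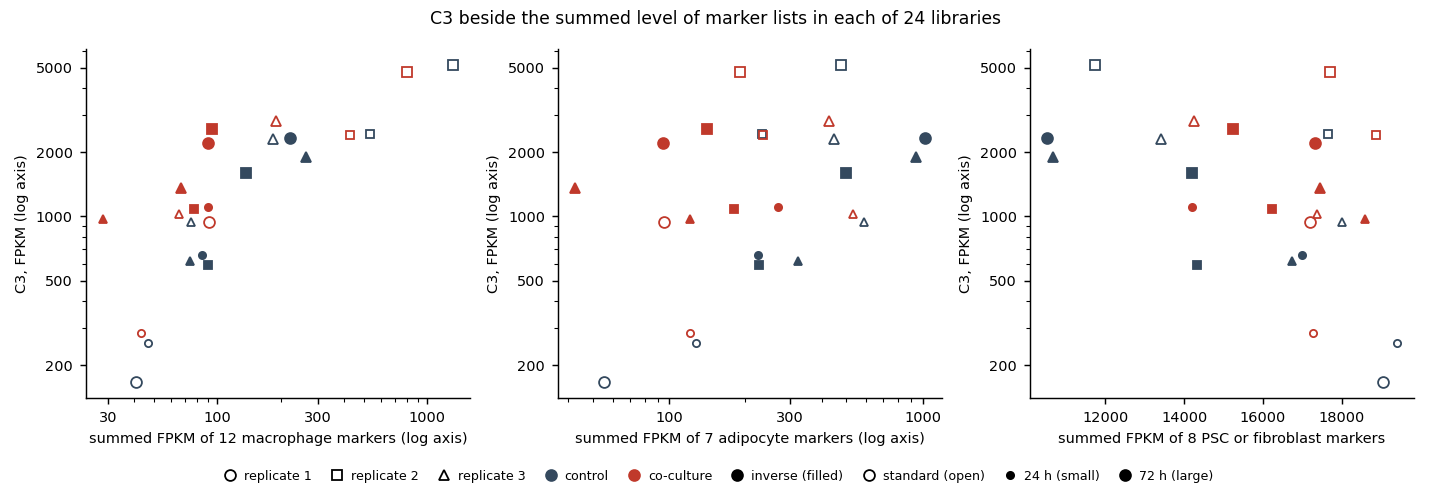
C3 (y axis, FPKM, log axis) beside the summed FPKM of 12 macrophage, 7 adipocyte and 8 PSC or fibroblast markers (x axes) in each of 24 libraries, with open symbols for the standard and filled symbols for the inverse model, colours for control and co-culture, and larger symbols for 72 h. Standard libraries of replicate 2 lie at the upper right of the macrophage panel, up to 1322 FPKM in sum. Inverse libraries at 24 h lie at 593 to 661 FPKM of C3 in controls and 971 to 1103 in co-culture, with macrophage sums of 74.3 to 90.4 and 28.5 to 90.5 FPKM. At 72 h they lie at 1604 to 2344 and 1361 to 2585 FPKM of C3, with sums of 137 to 263 and 67.1 to 94.1.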

How the data were processed

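The members and gene lists were chosen with earlier results of these data known. Polyadenylated RNA of 24 PSC libraries was sequenced by the authors, aligned to GRCm38 with HISAT2 2.0.5, counted with featureCounts 1.5.0-p3, which by default ignores strand and leaves out fragments of several genes, and deposited as FPKM. The submitters' processing notes also name CASAVA and DESeq2 1.20.0. Here log2(FPKM + 0.5) was fitted with limma 3.58.1 (R 4.3.3, moderated test with an intensity trend) on the libraries of each comparison, for genes above 1 FPKM in at least 3 libraries, with Benjamini-Hochberg adjustment over all genes tested, two-sided, at 0.05. Fold changes on this scale understate those of low genes. There were 10 comparisons. Fragments were recovered from the steps of low FPKM values, of which 96.69 to 97.49% were whole within 0.1 per library, with mean transcript lengths of GENCODE M21 inferred from the values (53706 of 53801 genes matched). All members were named, with other complement genes called in a co-culture comparison, the copies C4a, C1rb and C1s2, the neighbour C2, and the 3 genes most like C3 and Ptx3. Other genes of the lists were named after their values were seen. Same-numbered standard libraries deviated together from their group means (r = 0.48 to 0.82 over genes), which the labels do not explain, and were treated as pairs in an alternative with the replicate number as a block. Other alternatives were pseudocounts of 0.1 and 1, filters, scalings, voom on the recovered fragments, and each library left out. A few list genes are not reported here. Scripts were tested on simulated data.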

Additional observations from a re-analysis of the deposited data

How the results depend on the processing

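Of the alternatives, 7 of 90 for called member values lost the call and 0 turned the direction, and of 995 for values not called 6 were called and 98 had the other sign. In inverse co-culture at 24 h the number of members called moved from 1 to 2 with median-ratio scaling, with a mean FPKM above 5 as filter and with voom on the recovered fragments without or with the replicate block, and to 0 without a filter on low values and with all 24 libraries in 1 model. In standard co-culture at 72 h all 24 libraries in 1 model called 1 member, Ptx3. Leaving out 1 library each gave 0 to 2 called members in inverse co-culture at 24 h, 5 to 6 in the inverse controls over time, 1 in inverse co-culture at 72 h, and 0 in the other comparisons.

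The replicate number as a block changed no call of a member in any comparison where it was fitted. In standard co-culture at 24 h it called 157 of all genes against 0 without it, and for the difference between models at 72 h 16 against 0. For standard co-culture, where same-numbered libraries deviated together, the blocked adjusted p of Ptx3 at 72 h was 0.24 from limma. In the inverse model same-numbered libraries correlated at -0.17 to 0.10 in the co-culture comparisons. They thus showed no shared deviation, and the labels do not say what their number marks. With the block C3 at 24 h had an adjusted p of 0.0451 from limma and Ptx3 at 72 h one of 0.0257.

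The directions that turned all belonged to values that were not called, and the cause was not tested. voom gave 0.18 for Cfb in standard co-culture at 24 h, and quantile normalization gave -0.051 for C3 in inverse co-culture at 72 h. Without the standard libraries numbered 1, an alternative chosen after seeing the data, standard co-culture at 72 h gave -0.24 for Cfb, -0.15 for C1s1, -0.31 for C1ra and -0.088 for Serping1, the difference between models at 72 h gave 0.44 for Cfb, and the difference between time points in the standard model gave -0.12 for Cfb, -0.085 for C1ra and -0.14 for Serping1. The fits that left out 1 library had no replicate block. Leaving out a standard library thus left the same-numbered libraries of other groups without a match. For C3 in standard co-culture at 24 h the pair ratios were 1.12, 0.995 and 1.08. With no library left out, its log2 fold change of 0.09 had a standard error of 1.05, or 0.07 under the block. The following log2 values changed sign when 1 library was left out, given as the lowest and highest over these fits. In standard co-culture at 24 h they ran from -0.77 to 0.91 for C3, from -1.01 to 1.21 for C4b, from -0.88 to 0.67 for Cfb, from -0.90 to 0.54 for C1s1, from -0.80 to 0.49 for C1ra and from -0.69 to 0.81 for Serping1. In standard co-culture at 72 h they ran from -0.56 to 1.91 for C3, from -0.28 to 1.81 for C4b, from -0.72 to 0.95 for Cfb, from -0.49 to 0.67 for C1s1, from -0.58 to 0.92 for C1ra and from -0.48 to 1.23 for Serping1. In inverse co-culture at 24 h they ran from -0.043 to 0.29 for C1s1 and from -0.020 to 0.43 for C1ra. In inverse co-culture at 72 h they ran from -0.15 to 0.31 for C3, from -0.026 to 0.22 for C4b, from -0.088 to 0.42 for Cfb and from -0.35 to 0.026 for Serping1. For the difference between models at 24 h they ran from -0.16 to 1.52 for C3, from -0.69 to 1.53 for C4b, from -0.014 to 1.54 for Cfb, from -0.42 to 1.01 for C1s1, from -0.26 to 1.02 for C1ra, from -0.29 to 1.22 for Serping1 and from -0.33 to 0.050 for Ptx3. For the difference between models at 72 h they ran from -1.87 to 0.60 for C3, from -1.74 to 0.35 for C4b, from -0.75 to 0.92 for Cfb, from -1.06 to 0.10 for C1s1, from -1.39 to 0.11 for C1ra and from -1.42 to 0.29 for Serping1. For the difference between time points in the standard model they ran from -0.65 to 1.82 for C3, from -0.48 to 2.04 for C4b, from -0.64 to 1.19 for Cfb, from -0.39 to 1.15 for C1s1, from -0.49 to 1.16 for C1ra and from -0.55 to 1.27 for Serping1. For the standard controls over time they ran from -0.43 to 2.04 for C3, from -0.69 to 1.83 for C4b, from -0.38 to 1.44 for Cfb, from -0.43 to 1.11 for C1s1, from -0.38 to 1.27 for C1ra and from -0.40 to 1.42 for Serping1. Cfb rested on 3 to 173 fragments and C7 on 0 to 134 per library, so that small differences of these genes were not detectable at this depth. A fit that leaves 2 libraries in a group assumes that they vary like the others.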
